A study of Mus musculus with 3 samples.

Results

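The 34 genes described here build cholesterol and fatty acids or control how cells sense, store and export sterols. They were found by GENCODE M21 symbol among the 55536 genes of the deposited tables, and each symbol was present. Enzymes of synthesis make up 23 of them: 8 of the mevalonate and isoprenoid steps, 11 of the steps that turn squalene into cholesterol and 4 of fatty acid synthesis. The other 11 are 6 sensors and regulators and 5 proteins of efflux, storage and transport. Other genes act in these pathways too, so the 34 are a selection.

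The polyadenylated RNA came from mouse (Mus musculus) regulatory T cells (Tregs) that the labels call inflammation-experienced, primary cells aged 12 weeks that derive from activated Tregs. The labels give 1 donor and 1 biosample, with 3 libraries marked as technical replicates 1 to 3 of biological replicate 1, so there is 1 group and no untreated control. The sources used here do not give genotype, strain, the source of inflammation or how the cells were sorted, and sex was not collected. Spread between these libraries is therefore technical by its label and says nothing about spread between mice. Total expected counts on genes, which are reads that a model shares out among genes, were 35592206, 31611422 and 37728241 in libraries 1, 2 and 3.

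The labelled cell type was checked against its markers. All 6 Treg and T cell markers were detected, the highest being Cd3e, a chain of the T cell receptor complex, at 1119 TPM, and the lowest Foxp3, the factor that defines Tregs, at 97.6 TPM. TPM is a transcript level corrected for length and scaled to 1 fixed sum per library. Summed levels of 6 B cell markers were 72.7, 77.0 and 66.2 TPM in libraries 1 to 3, led by Cd79b at 30.4 TPM, and 5 of the 6 were detected, Pax5 not. None of 8 adipocyte and none of 8 hepatocyte markers was detected. Their sums were 1.71 to 2.43 and 0.48 to 3.29 TPM, led by Lpl at 0.82 and Ttr at 1.05 TPM, with Plin4, Retn, Apoa1, Apoc3 and Serpina1a at 0 throughout. Of 8 macrophage and monocyte markers only Cd68 was detected, at 1.64 TPM, and Cd14 was at 0. Library 3 also held transcripts of secretory glands, from Bpifa2 down to Crisp1, which took 3.49% of its gene counts, against 0.000303% in library 1 and 0.000733% in library 2. The summed level of 8 proliferation markers was 243, 216 and 207 TPM, with Pcna highest at 115 TPM and Bub1 lowest at 0.897 TPM.

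Cells make sterols from acetyl-CoA through mevalonate to farnesyl diphosphate, where the route divides. Squalene synthase leads on to cholesterol, while geranylgeranyl diphosphate serves as a lipid anchor for small GTPases. The transcription factors SREBP1 and SREBP2 switch these enzymes on when sterols are scarce: SCAP escorts them out of the endoplasmic reticulum and the INSIG proteins hold them back. When sterols are plentiful, liver X receptors switch on export genes such as Abca1 and Abcg1, together with Mylip, a ubiquitin ligase that removes lipoprotein receptors. Activated T cells are known to raise sterol and fatty acid synthesis as they grow, and Tregs are known to need the mevalonate pathway for suppression.

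Nearly the whole set was expressed. Detection was set at a TPM of 1 or more in every library, which 33 of the 34 genes reached, beside 47.6% of all 22028 protein-coding genes. The exception was Scd1. Levels were moderate: the median of the 10494 detected protein-coding genes was 31.4 TPM, and 12 of the 34 lay above it, 7 of them synthesis genes and 5 regulators or transport genes. Errors below are standard deviations over the 3 libraries.

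**Figure D1:**
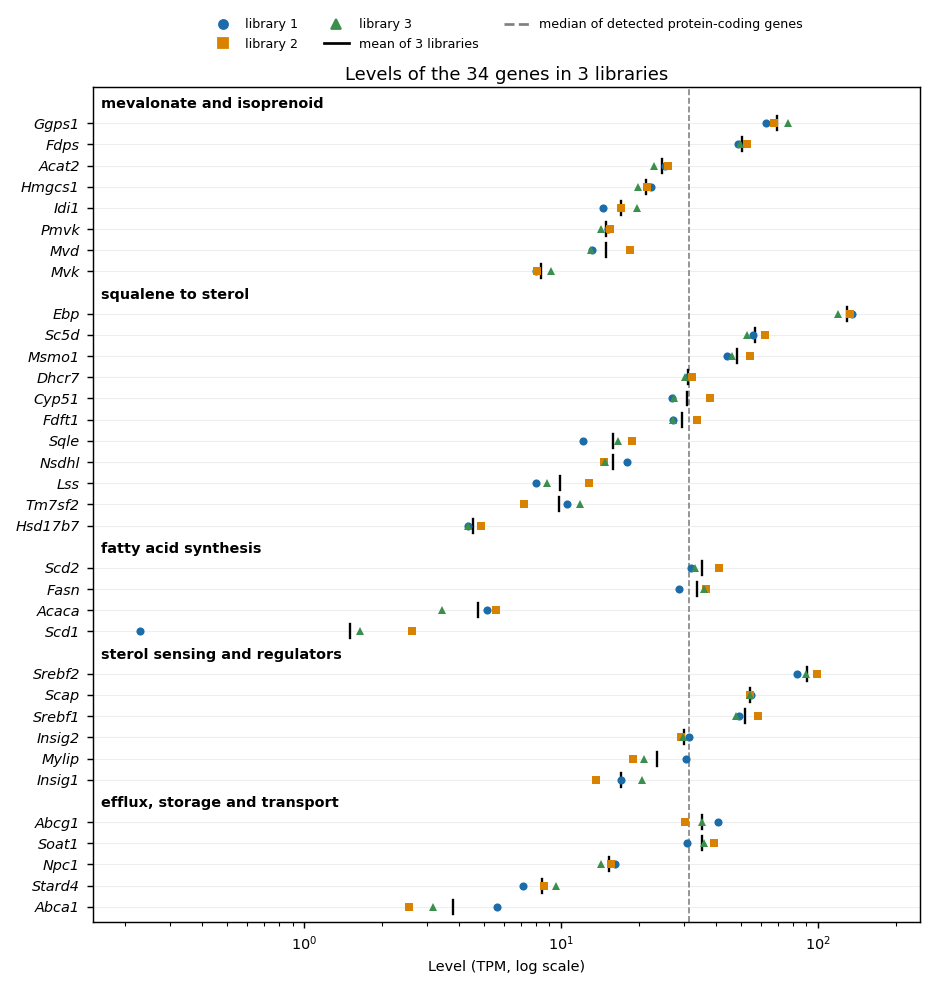
Level of each of the 34 genes (TPM, log scale) in libraries 1 to 3, grouped by role, with the mean as a black bar and the median of detected protein-coding genes (31.4 TPM) as a dashed line. Ebp stands highest at a mean of 129 TPM, and Scd1 is the gene with a library below 1 TPM.

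All 8 mevalonate and isoprenoid genes were detected, with a median of 19.2 TPM. Hmgcs1 encodes the synthase that makes HMG-CoA, the substrate for mevalonate, and was at 22.4, 21.5 and 19.9 TPM in libraries 1 to 3. Acat2, the thiolase one step earlier, averaged 24.8 ± 1.62 TPM. The kinases and the decarboxylase that follow were lower, with Mvk at 8.37 ± 0.632, Pmvk at 14.99 ± 0.681 and Mvd at 14.9 ± 3.09 TPM. Idi1, the isomerase that makes the active isoprene unit, averaged 17.1 ± 2.55 TPM. The 2 prenyl diphosphate synthases stood above the rest of the list. Fdps, which makes farnesyl diphosphate, was at 48.6, 52.9 and 49.6 TPM. Ggps1, which extends it to geranylgeranyl diphosphate, was at 62.7, 67.2 and 76.7 TPM. The ranges of these 2 genes over the libraries did not overlap with each other or with those of the other 6.

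The 11 genes from squalene to cholesterol were all detected, with a median of 29.4 TPM, and differed widely among themselves. Ebp, the sterol isomerase, was the highest of all 34 genes, at 135, 133 and 119 TPM. Its mean lay above 87.1% of detected protein-coding genes. Next came Sc5d, the lathosterol desaturase, at 56.9 ± 4.75 TPM, and Msmo1, a C4 methyl oxidase, at 48.2 ± 5.49 TPM. Dhcr7, which acts at the end of the pathway, Cyp51, the lanosterol demethylase, and Fdft1, the squalene synthase, followed at 31.3 ± 1.07, 30.8 ± 6.11 and 29.4 ± 3.86 TPM. These 3 neighbours overlapped in range. Sqle, the squalene epoxidase, and Nsdhl, a C4 decarboxylase, were nearly level at 15.9 ± 3.42 and 15.9 ± 1.93 TPM. The low end held Lss, the lanosterol synthase, at 9.85 ± 2.57, Tm7sf2, a sterol C14 reductase, at 9.84 ± 2.40 and Hsd17b7, the 3-keto reductase, at 4.52 ± 0.306 TPM.

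Of the 4 fatty acid genes, Fasn and Scd2 were the highest. Fasn, the fatty acid synthase, was at 28.7, 36.4 and 36.0 TPM. Acaca, which makes its malonyl-CoA substrate, was at 5.15, 5.59 and 3.43 TPM, below Fasn in every library. Scd2, a stearoyl-CoA desaturase that makes monounsaturated fatty acids, was at 32.0, 41.0 and 33.2 TPM. Scd1, its relative best known from liver and fat, was at 0.23, 2.62 and 1.65 TPM, on 10.6, 243.5 and 177.9 expected counts. The lowest Scd2 value was thus far above the highest Scd1 value.

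The regulators were the most abundant of the 5 lists, with a median of 41.0 TPM. Srebf2, which encodes SREBP2, the factor that mainly drives sterol enzymes, was at 83.0, 99.2 and 89.6 TPM. Srebf1, which encodes SREBP1, known more for fatty acid genes, was at 49.05, 58.4 and 48.1 TPM. Scap was the steadiest of the 34 genes in TPM, at 54.8, 54.1 and 54.2. The 2 retention proteins differed: Insig2 was at 31.4, 29.3 and 29.8 TPM and Insig1, itself a sterol-responsive SREBP target, at 17.2, 13.7 and 20.6 TPM. Mylip was at 30.5, 19.0 and 21.02 TPM.

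Among the genes of efflux, storage and transport the median was 15.4 TPM. Abcg1, an exporter of sterols, was at 40.8, 30.2 and 35.3 TPM. Abca1, which loads cholesterol onto apolipoproteins, was at 5.63, 2.55 and 3.16 TPM. Soat1, which esterifies cholesterol for storage, averaged 35.4 ± 4.29 TPM, level with Abcg1. Npc1, which releases cholesterol from lysosomes, averaged 15.4 ± 0.970 TPM, and Stard4, a cytosolic sterol carrier, 8.42 ± 1.23 TPM.

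Set against each other, the synthesis genes were slightly lower than the regulators and transport genes. The median log2(TPM + 1) of the 23 synthesis genes was 4.55, 4.49 and 4.39 in libraries 1 to 3, and that of the 11 others 4.99, 4.92 and 4.95. The difference was -0.44, -0.43 and -0.56 (mean -0.48 ± 0.07), with no test, since the genes were chosen and are not replicates. Whole-number counts on the older annotation M4 were also used, divided by each gene's mean M21 length in kilobases and rescaled per library. In these M4 counts per kilobase the difference was -0.32, 0.14 and -0.0012 (mean -0.06 ± 0.23). Neither its size nor its sign in each library held there. The 11 others were also not alike in median log2(TPM + 1). The 5 efflux, storage and transport genes alone had 4.11, 4.05 and 3.94, below the synthesis genes in every library. The 6 sensors and regulators had 5.33, 5.35 and 5.28, above them. Each list held genes at both ends of its range, so neither side was uniformly high or low.

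Relatives and enzymes at a branch point were set against each other in 6 pairs. Each pair was apart: 1 sign in all 3 libraries, no overlap of ranges over libraries, and no overlap of the authors' TPM bounds within any library. These bounds need not contain the TPM: Srebf2 in library 1 was at 83.04 TPM, with bounds of 75.7 and 81.7. An exact permutation test of the difference in log2(TPM + 1), two-sided and by flipping signs, can give no p below 0.25 with 3 libraries. Every pair reached 0.25, also after adjustment over the 6, so no pair could pass 0.05. Scd2 exceeded Scd1 by 3.99 ± 0.66 on the log2 scale, with mean levels 23.6-fold apart. Abcg1 exceeded Abca1 by 2.97 ± 0.28, with means 9.37-fold apart. Acaca was below Fasn, with a difference of -2.61 ± 0.41. Fdft1, which commits farnesyl diphosphate to sterols, was below Ggps1, which commits it to prenyl anchors, with a difference of -1.20 ± 0.25. Insig1 minus Insig2 was -0.80 ± 0.27, and Srebf2 minus Srebf1 was 0.80 ± 0.08. Signs held under every setting tried, but sizes did not: without length correction Abcg1 minus Abca1 was 1.55. In the M4 counts per kilobase Fdft1 minus Ggps1 was -0.42 and Srebf2 minus Srebf1 was 0.25.

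The 3 libraries were next compared with each other, to show which of these genes vary between libraries of the same biosample. Rounded expected counts were scaled with TMM (a trimmed mean of log ratios between libraries), and a chi-square test set each gene's counts in the libraries against Poisson noise. At a Benjamini-Hochberg adjusted p under 0.05, 26 of the 34 genes differed, where 77.2% of all 18253 genes tested did. The share is near that of genes at large. Most genes thus differed beyond counting noise between libraries labelled as technical replicates, and at which step these were divided is not stated in the labels. A difference of at least 1.5-fold between the highest and the lowest library was seen in 6 of the 34. That background was 42.9% of all genes tested and 16.5% of the 11218 genes that averaged at least 100 counts, a level that all 34 reached. The 8 genes not called were Acat2, Hmgcs1, Pmvk, Ebp, Sc5d, Dhcr7, Insig2 and Npc1. Their highest library was at most 1.10-fold above their lowest. Ebp was the most even, with 65.4, 64.1 and 65.6 scaled CPM (counts after TMM scaling to a common library size), a 1.02-fold range.

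**Figure D2:**
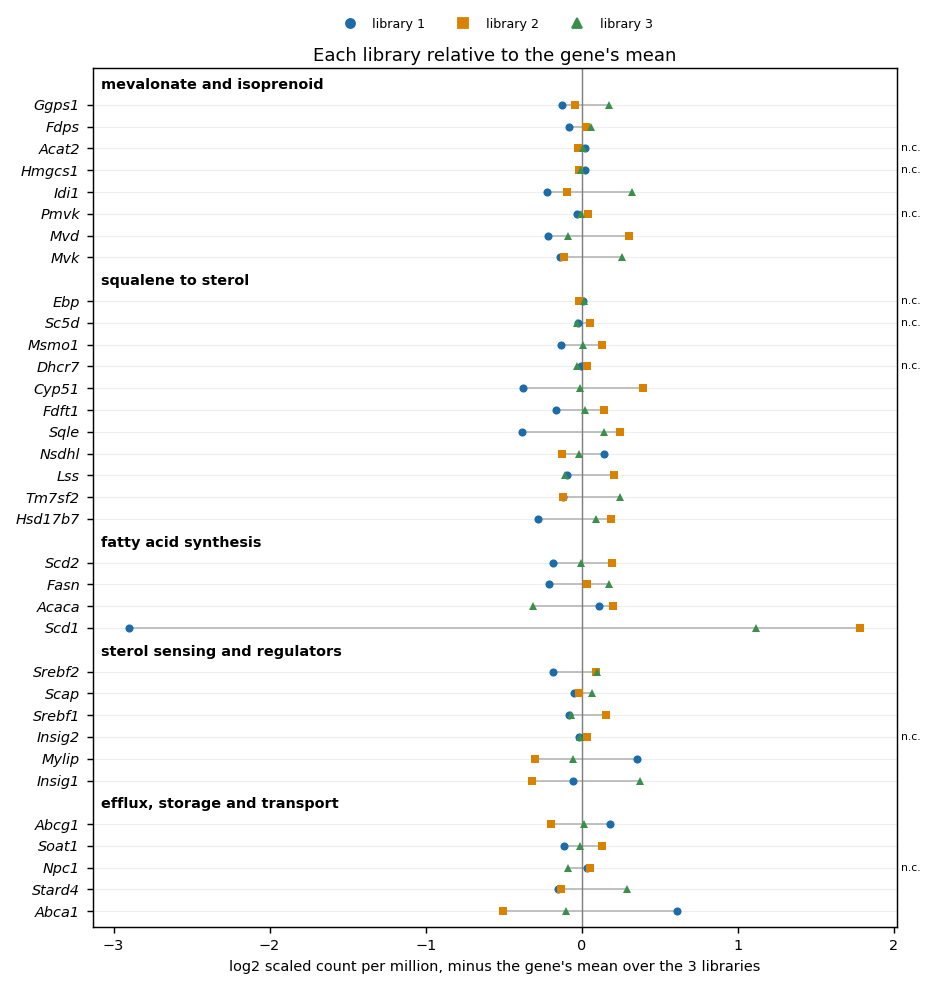
Scaled CPM of each gene in libraries 1 to 3 as log2 difference from the gene's mean over the libraries, grouped by role; n.c. marks the 8 genes not called different by the chi-square test. Sterol genes such as Cyp51 and Sqle sit left in library 1, Abca1, Abcg1 and Mylip sit right in library 1, and Scd1 spans the widest range at 25.7-fold.

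Synthesis genes tended to be lower in library 1. Against library 2, 10 of the 23 were lower in library 1 and 1 was higher, where 30.8% of all genes tested were called lower and 29.8% higher. The median log2 ratio of library 1 over library 2 was -0.11 for the 23 genes, -0.0022 for all genes tested and -0.0363 for genes averaging at least 100 counts. Against library 3, 13 were lower in library 1 and 1 was higher, where 26.4% and 22.7% of all genes were, and the median was -0.14 beside -0.0118 for all genes tested and -0.0287 for genes averaging at least 100 counts. With total-count scaling that became 10 lower and 3 higher, beside 16.9% and 33.4% of all genes. In the M4 counts 7 of 22 were lower than in library 3 and 7 lower than in library 2, beside 13.4% and 18.1%. In library 2 against library 3, 8 were higher and 5 lower, beside 28.0% and 29.0% of all genes, with a median of 0.07 beside 0.00962 for genes averaging at least 100 counts. In the M4 counts that became 2 higher and 4 lower, beside 15.6% and 21.1% of all genes. The single higher gene was Nsdhl in the first comparison and Acaca in the second. With 4 other ways of scaling or filtering and with the M4 counts, the median for library 1 over library 2 ran from -0.108 to -0.066, that for library 1 over library 3 from -0.143 to -0.060 and that for library 2 over library 3 from 0.0207 to 0.109. The libraries also differ in the markers given above, and the part of these in the ratios was not tested. In bulk RNA, fewer cells of a type and less RNA per cell cannot be told apart.

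Of the squalene-to-sterol genes, 6 of the 11 were called lower in library 1 when set against library 2, and the list's median ratio was -0.26 on the log2 scale. Of the 4 fatty acid genes 3 were called lower, and their median was -0.31. Among all genes tested, 30.8% were called lower. In library 2, 8 of the 11 squalene-to-sterol genes were at their highest, as were 41.0% of all genes averaging at least 100 counts. Cyp51 had 47.7, 81.3 and 61.4 scaled CPM, and the log2 ratio of library 1 over library 2 was -0.77 ± 0.04 (counting error, adjusted p 8.92e-66). Sqle had 20.6, 31.8 and 29.8 scaled CPM. Its ratio of library 1 over library 2 was -0.63 ± 0.07 (adjusted p 1.61e-18). Hsd17b7, Fdft1, Lss and Msmo1 gave -0.47, -0.31, -0.30 and -0.26. In the M4 counts Hsd17b7, Fdft1 and Msmo1 were not called different between the libraries, with adjusted p of 0.618, 0.238 and 0.54. Library 1 was called below library 2 there for 3 of the 11 genes, beside 18.1% of all genes. Of the mevalonate genes only Mvd was called, with 13.7, 19.6 and 14.9 scaled CPM and a ratio of -0.52 ± 0.09 (adjusted p 1.11e-08). Fasn and Scd2 were lower too, at -0.24 and -0.38.

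Another pattern was shared by 3 genes among the known targets of liver X receptors, which were not compared as a set. Abca1, Abcg1 and Mylip were each highest in library 1 and lowest in library 2, and each pair of libraries was called different for all 3. Library 1 was the highest for 27.1% of all genes averaging at least 100 counts. Of the 6 Treg and T cell markers, 2 were also highest in library 1 and lowest in library 2, so the order is not particular to these targets. Abca1 had 34.6, 16.0 and 21.2 scaled CPM, and library 1 exceeded library 2 by 1.11 ± 0.08 (adjusted p 2.38e-49). Mylip had 55.5, 35.2 and 41.7 scaled CPM and a ratio of 0.66 ± 0.05 (adjusted p 3.42e-33). Abcg1 had 77.8, 59.8 and 69.2 scaled CPM and a ratio of 0.38 ± 0.04 (adjusted p 9.41e-18). Library 1 remained the highest for these 3 genes in all 6 settings. These genes were put together after their values were seen. Srebf1, also a known target of these receptors, did not share the order, with 82.1, 96.5 and 82.8 scaled CPM. Scd1 and Fasn did not share it either. Both were lowest in library 1, Scd1 with 0.30, 7.72 and 4.86 scaled CPM and Fasn with 136.8, 161.9 and 177.9. Summed macrophage markers, from cells rich in Abca1, were 4.11, 2.62 and 4.51 TPM, and their part in the order was not tested.

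Of the 34 genes, 11 were highest in library 3, as were 31.8% of all genes averaging at least 100 counts. The share is near that of genes at large. Insig1 had 25.0, 20.8 and 33.6 scaled CPM, a 1.62-fold range. Idi1 had 26.0, 28.4 and 37.9, and Stard4 had 13.7, 13.95 and 18.7. Ggps1, Mvk, Tm7sf2 and Fasn were also highest there, with ranges of 1.23- to 1.31-fold. So were Fdps, Ebp, Srebf2 and Scap, with ranges of 1.02- to 1.22-fold. SREBP targets thus did not move as 1 block: Cyp51 and Mvd peaked in library 2, Insig1 and Idi1 in library 3, while Hmgcs1 was level at 40.4, 39.3 and 39.7.

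Scd1 stood apart from the rest, with 0.30, 7.72 and 4.86 scaled CPM. Library 1 over library 2 was -4.62 ± 0.44 (adjusted p 2.55e-54). The M4 tables gave 2, 32 and 33 counts. Adipoq, the adipocyte marker closest to it in pattern, had 5, 22 and 22 expected counts, but the 8 adipocyte markers together were 2.23, 1.71 and 2.43 TPM and did not follow that order. Their part in Scd1 was not tested. Scd2 had 104, 136 and 118 scaled CPM.

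Promoters are shown for a gene level between libraries and for genes low or high in library 1, since SREBP is known to act on such sites together with the factors NF-Y, which binds CCAAT, and Sp1, which binds GC boxes. RefSeq promoters on GRCm38.p6, the assembly of the mm10 files, were found for 26 of the 34 genes, as 34 windows of 250 bases before the annotated start. Both strands were searched for the sterol regulatory element core TCACNCCAC, for CCAAT and for GGGCGG, none of which contains another. In the sequences, written 5′ to 3′ on the strand of the gene, capitals mark the core element and CCAAT, or the reverse complement of CCAAT where it lies on the other strand. They are Hmgcs1 at chr13:119690101-119690350 (plus strand), the only window with the core element, then Cyp51 at chr5:4104698-4104947 (minus) and Mvd at chr8:122443423-122443672 (minus), low in library 1, and Abca1 at chr4:53159896-53160145 (minus) and Mylip at chr13:45389492-45389741 (plus), high in library 1.
Hmgcs1: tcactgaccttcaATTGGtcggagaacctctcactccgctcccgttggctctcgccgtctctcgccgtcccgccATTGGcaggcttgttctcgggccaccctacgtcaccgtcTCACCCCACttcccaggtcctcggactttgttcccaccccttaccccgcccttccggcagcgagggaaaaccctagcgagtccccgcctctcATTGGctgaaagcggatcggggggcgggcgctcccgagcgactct
Cyp51: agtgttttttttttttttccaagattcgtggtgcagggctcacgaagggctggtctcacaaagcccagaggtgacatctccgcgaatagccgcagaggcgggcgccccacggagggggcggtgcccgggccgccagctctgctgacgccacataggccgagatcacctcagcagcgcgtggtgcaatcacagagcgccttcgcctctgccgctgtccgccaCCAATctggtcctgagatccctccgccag
Mvd: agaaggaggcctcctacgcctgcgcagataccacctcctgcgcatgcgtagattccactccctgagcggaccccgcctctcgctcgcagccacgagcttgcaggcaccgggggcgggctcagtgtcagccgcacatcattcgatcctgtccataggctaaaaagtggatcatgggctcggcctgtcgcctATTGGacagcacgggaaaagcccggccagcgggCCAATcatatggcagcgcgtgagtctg
Abca1: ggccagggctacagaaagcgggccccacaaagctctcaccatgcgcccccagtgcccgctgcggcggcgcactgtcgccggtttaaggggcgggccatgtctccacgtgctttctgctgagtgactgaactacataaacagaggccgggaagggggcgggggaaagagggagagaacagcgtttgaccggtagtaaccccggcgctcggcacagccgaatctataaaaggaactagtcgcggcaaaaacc
Mylip: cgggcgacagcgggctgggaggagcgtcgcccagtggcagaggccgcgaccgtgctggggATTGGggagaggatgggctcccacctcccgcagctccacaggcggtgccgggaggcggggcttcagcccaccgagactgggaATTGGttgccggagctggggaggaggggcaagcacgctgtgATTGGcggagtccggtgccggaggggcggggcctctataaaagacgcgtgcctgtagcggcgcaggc

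CCAAT was frequent before these genes. It was found in 23 of the 34 windows, or 67.6%, beside 33.8% of all 32851 RefSeq promoters and 35.8% of the 10671 promoters of detected protein-coding genes. Windows of synthesis genes held it in 16 of 21 cases, and windows of regulator and transport genes in 7 of 13. The GC box was in 24 of 34 windows, or 70.6%, beside 32.7% of all promoters and 58.0% of those of detected genes. The core element was in 1 window, or 2.94%, beside 1.05% and 0.975%. In Hmgcs1 it lay 137 to 129 bases before the start, with 3 CCAAT boxes around it. Mvd had 2 CCAAT boxes, at 60 to 56 and 27 to 23 bases before the start, and Cyp51 had 1, at 29 to 25. Mylip had 3, and the Abca1 window had none but 2 GC boxes. Hmgcs1, level between libraries, and Mylip, highest in library 1, thus held equal numbers of CCAAT boxes. A match of letters is a description and not a measured binding site, and other spellings of the element were not searched.

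**Figure D3:**
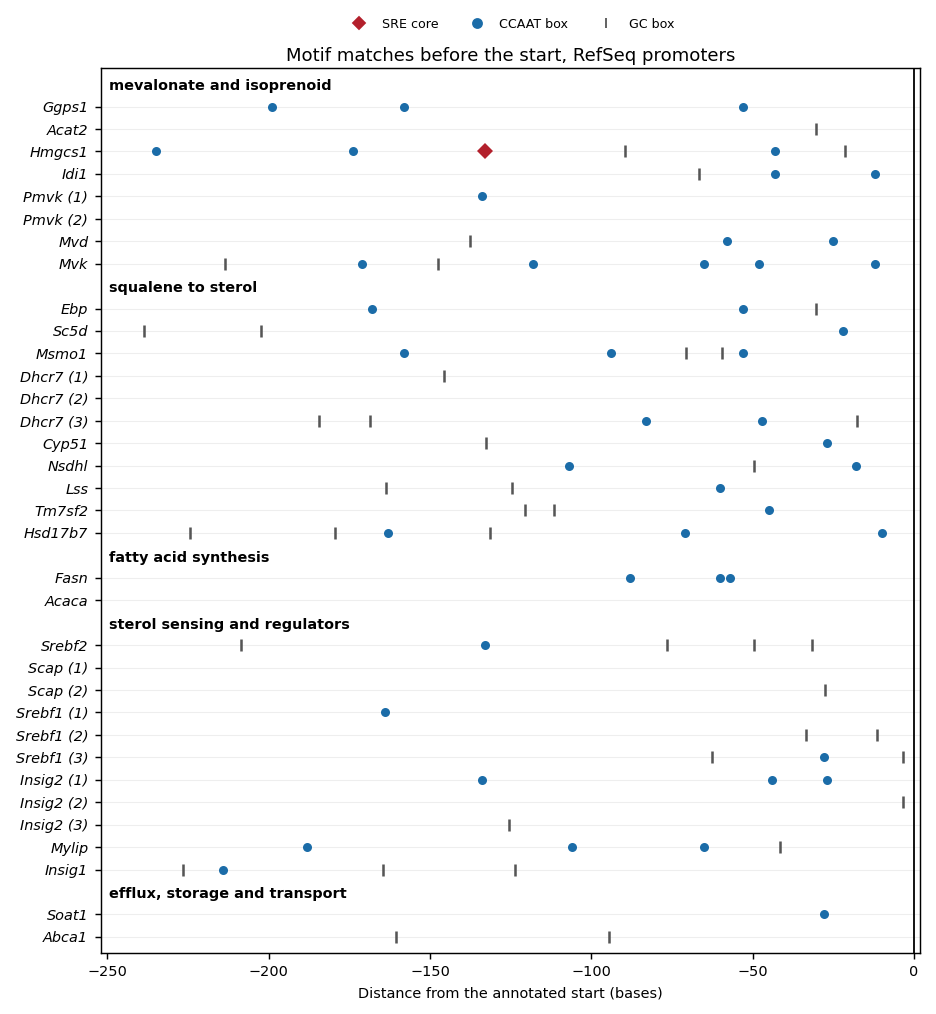
Matches to the sterol regulatory element core (SRE core), CCAAT and the GC box in the 34 promoter windows of 26 genes, by distance from the annotated start in bases; numbers in brackets tell apart windows of 1 gene. CCAAT matches occur in 23 windows and the core element in 1, that of Hmgcs1.

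Srebf2 also houses the microRNA gene Mir33, on the same strand. Its mature product miR-33-5p, chr15:82198127-82198147 (plus strand, RefSeq on GRCm38.p6), is known to restrain ABCA1, so the sterol factor and a brake on sterol export lie in 1 locus. Srebf2 lies at chr15:82147181-82205379. The microRNA is printed with its seed, bases 2 to 8, in capitals. Below it stand the stretches of 30 bases in the 3′ untranslated regions of Abca1 (chr4:53033783-53033812, minus strand, last exon of Abca1-201) and Abcg1 (chr17:31114996-31115025, plus strand, Abcg1-201) where the complement of the seed occurs, in capitals.
miR-33-5p: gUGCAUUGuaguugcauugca
Abca1: tattCAATGCAATGCActtCAATGCAacga
Abcg1: gcaacgCAATGCAacgCAATGCAgacagtg

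Abca1 had 3 such matches, within 135 to 156 bases after the stop codon, 2 of them overlapping. Abcg1 had 2, within 717 to 733 bases after the stop codon. Acaca and Nsdhl had 1 each, and the other 30 genes had none in the untranslated region of their highest coding transcript that has one. Of 10398 detected protein-coding genes with such a region, 5.61% had at least 1 match, without allowance for length. Levels of the mature microRNA are not analysed here.

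Most of the transcript level came from protein-coding transcripts, with exceptions among the abundant genes. The highest transcript of 33 of the 34 genes was protein-coding, and the median share of TPM in coding transcripts was 87.8%. In 10 genes it was under 75%. For Ebp, a retained-intron transcript, Ebp-202, took 43.5 ± 1.42% of the gene's TPM, leaving 77.1, 74.8 and 64.9 TPM in coding transcripts. Coding Ebp was still above every other gene's coding level apart from Srebf2, at 57.1, 73.6 and 63.9 TPM, whose range overlapped with it. Npc1 was led by the noncoding Npc1-203, and its coding transcripts averaged 30.3 ± 2.92% or 4.67 TPM. In Srebf1, whose alternative starts give different isoforms, 49.2 ± 5.23% of TPM came from Srebf1-201, which begins within 23 bases of the middle of 3 RefSeq starts, and 20.0 ± 3.70% from the noncoding Srebf1-204 at the first. The leading transcript Srebf2-201 took 49.9 ± 4.52% of the TPM of Srebf2. Scd2, Mylip, Abca1, Pmvk and Sc5d were coding throughout.

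**Figure D4:**
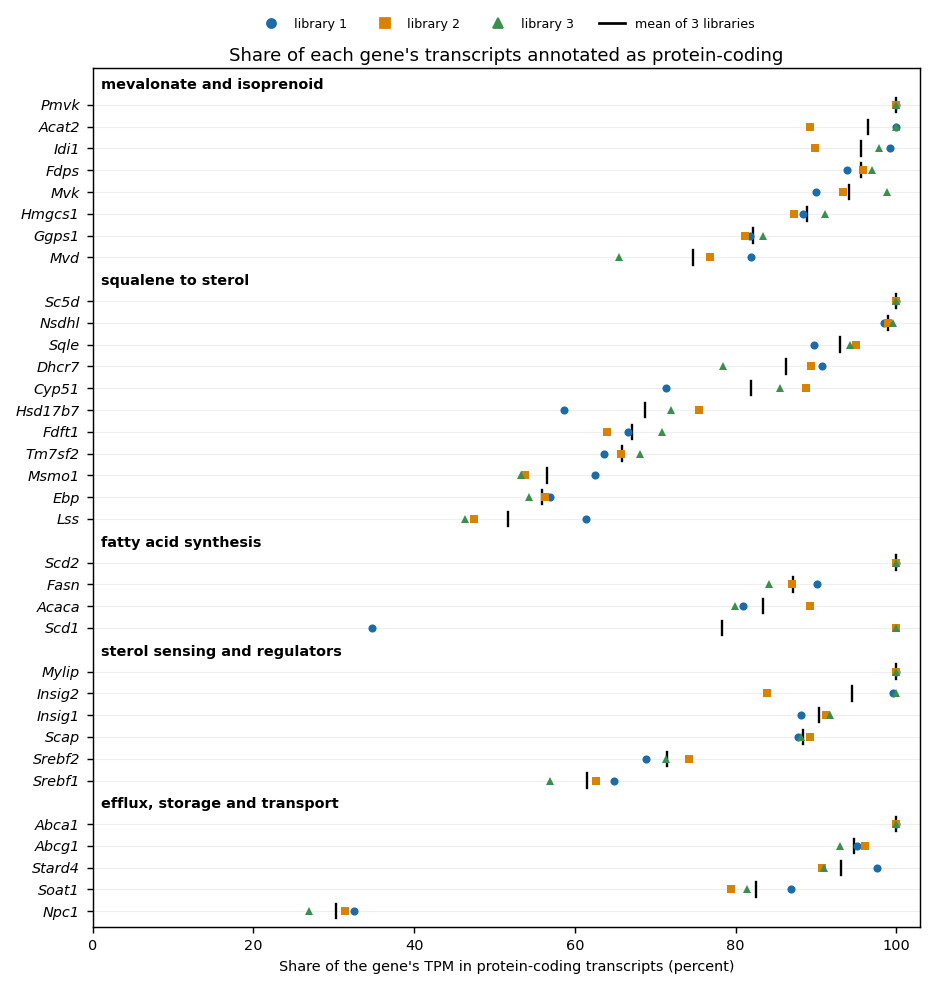
Share of each gene's TPM in transcripts annotated as protein-coding (percent) in libraries 1 to 3, with the mean as a black bar, grouped by role. Npc1 is lowest at 30.3%, and the Scd1 value in library 1 (34.8%) rests on 10.6 expected counts.

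Reads of some of these genes can belong elsewhere. Of the leading transcripts, 8 shared at least 10% of their 50-base stretches with another gene: 82.0% in Fdps, 55.4% in Acaca, 46.1% in Ggps1, 45.9% in Acat2, 39.8% in Fdft1, 30.5% in Idi1, 14.5% in Hmgcs1 and 13.1% in Scap. Matches on either strand were counted. The share is not an error of the level, and its effect on these levels was not tested. Idi1 had 5, 8 and 12 counts in the M4 tables against 953, 899 and 1390 expected counts on M21. Scd2 and Scd1 shared little with other genes, at 4.01% and 4.66%. Overlapping genes lay over 12 of the 34, and whether counting used strand was not given in the sources used here. Among them were Ctsb over Fdft1, at a mean of 18040 expected counts, Arid4b over Ggps1 at 5762 and Akap9 over Cyp51 at 5289. Each of these lay on the opposite strand. Vps51, over Tm7sf2, averaged 2280 expected counts and lay on the same strand, though the leading Tm7sf2 transcript shared no 50-base stretch with another gene. Akap9 had 144.3, 165.6 and 145.9 scaled CPM in libraries 1 to 3, so it was highest in library 2, as Cyp51 was. The part of Akap9 reads in the Cyp51 values was not tested.

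Neighbouring pathways were detected in part. Of 22 genes that supply, elongate and activate fatty acids, 16 were detected, led by Tecr, a reductase of the elongation cycle, at 362 ± 22.2 TPM, Hacd3, its dehydratase, at 153.9 ± 15.8 and the elongase Elovl5 at 149 ± 9.52 TPM. Me1, which supplies NADPH, Acacb, the mitochondrial relative of Acaca, Elovl7 and Mlxipl, a sugar-sensing lipogenic factor, stayed below 1 TPM in every library. Of the 20 genes tested in this list, 12 were lower in library 1 than in library 2 and 2 higher. Among all genes tested, 30.8% were lower and 29.8% higher. Of 21 genes of sterol handling and processing, 16 were detected, led by Gramd1a, a sterol transporter between membranes, at 256 ± 4.40 TPM. The liver X receptor Nr1h2 followed at 119 ± 10.2 TPM. The other liver X receptor, Nr1h3, was at 0.67, 0.12 and 0.22 TPM. Ch25h and Cyp7b1, which make oxysterols or break them down, and the lipoprotein receptor Vldlr were below 1 TPM as well. Here 9 of 19 tested genes were called up in library 1 relative to library 2 and 4 down, beside 29.8% and 30.8% of all genes.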

How the data were processed

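RNA from 1 biosample of mouse Tregs was sequenced in 3 libraries, which form 1 group. The authors' gene tables on annotation M21 (assembly mm10) hold expected counts and TPM with bounds of unstated level, per the file headers. Deposited transcript tables give, in percent, the part of its gene's TPM held by each transcript, and deposited tables on annotation M4 hold whole-number counts. The aligner, the counting program and the strand setting are not given in the sources used here. TPM values of a library share 1 sum, so abundant gland transcripts in library 3 lower its other TPM values; library comparisons therefore use counts.

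Rounded expected counts were scaled by TMM (edgeR 4.0.16, R 4.3.3). Rows of transfer RNAs and spike-ins, 0.170% of counts in libraries 1 and 2 and 0.218% in library 3, were left out. Genes averaging at least 10 counts were tested by chi-square against Poisson noise, over 3 libraries and for each pair, with Benjamini-Hochberg adjustment over all genes. The test compares libraries and no conditions; with 1 group no edgeR contrast was run. It was tested on simulated Poisson counts, which follow the assumption of the test itself. That check cannot show how the test behaves where libraries differ beyond counting noise, as these do. Library ratios carry counting errors and add 0.5 to each count. Levels are compared on log2(TPM + 1). A 50-base stretch was called shared where it matched a transcript of another gene exactly, on either strand. The remaining work ran in Python 3.11.15 with scipy 1.17.1, numpy 2.4.6 and pandas 2.3.3.

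Genes named are all 34, their leading transcripts, of each neighbouring list the 3 highest and those below 1 TPM in every library, and of each marker list the highest and lowest; other names were chosen after their values were seen. A gene that this rule covers is not reported here. The 34 genes and the other lists were chosen with earlier results of these data known. Alternatives were DESeq2 1.42.0 size factors, total-count scaling, TMM without gland transcripts, a count minimum of 1, M4 counts, other pseudocounts, the authors' posterior mean TPM, values without length correction, a detection threshold of 5 TPM, and each library left out.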

Additional observations from a re-analysis of the deposited data

How the results depend on the processing

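No paired analysis was possible because all 3 libraries belong to 1 group. The median of synthesis genes minus that of regulators and transport genes, -0.48 as reported, kept the sign of its mean in all 10 alternatives, but not in each library. A library left out could not change that sign, which was negative in every library as reported. Nor could other pseudocounts, which keep the order of the medians. With the sterol synthesis genes only, the difference was the same in each library. It was -0.566 with the authors' posterior mean TPM, -0.385 ± 0.318 without length correction, -0.0588 ± 0.234 with M4 counts per kilobase, where the mean is smaller than its spread and library 2 was at 0.141, and -0.373 over detected genes only, and -0.50 to -0.44 with a library left out. The cause of these shifts was not tested. The count of genes with a 1.5-fold range between libraries, 6 as reported, was 2 without library 1, 2 without library 2 and 5 without library 3. A range over 2 libraries can hardly exceed that over 3, so such a fall follows from the measure. The share of all genes in these settings is not given here, and no conclusion is drawn from the fall. The 26 genes called different became 21, 22 and 18 without library 1, 2 and 3. The share of all genes called fell as well, from 77.2% to 57.7%, 49.1% and 60.9%. In the M4 counts 20 of 33 tested were called, where 52.1% of all genes were called. There Fdft1, Msmo1, Hsd17b7, Fdps and Scap lost the call. With total-count scaling Fdps and Scap lost it and Sc5d and Npc1 gained it. Calls of library pairs under other settings were added after seeing the data. The 10 synthesis genes lower in library 1 than in library 2 became 7 in the M4 counts, beside 18.1% of all genes. The 13 lower than in library 3 became 10 with total-count scaling, beside 16.9%, and 7 in the M4 counts, beside 13.4%. The cause was not tested. All 6 pairs stayed apart in 8 alternatives. Other pseudocounts or a library left out could not change this, because the ranges and bounds were already apart. Without length correction and in the M4 counts per kilobase the authors' bounds were not used, so the rule was weaker there. From 30 to 34 genes were detected in 5 alternatives. Depth limits Scd1 in library 1 most, where 10.6 expected counts stand behind its level.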

Other observations

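The uses of isoprenoids downstream of farnesyl and geranylgeranyl diphosphate were represented in full. All 12 genes of that list were detected, led by Fnta, the shared subunit of the farnesyl and geranylgeranyl transferases, at 99.1 ± 13.0 TPM, Rce1, the protease that trims prenylated proteins, at 62.2 ± 8.75 TPM and Rabggta, a subunit of the Rab geranylgeranyl transferase, at 52.4 ± 8.16 TPM. Of these 12, 6 were lower in library 1 than in library 2 and 3 higher, beside 30.8% and 29.8% of all genes tested.

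For Lss and Tm7sf2 the level and the count gave different pictures. The TPM of Lss was 7.99, 12.8 and 8.78 in libraries 1 to 3, a 1.60-fold range, while its scaled CPM was 17.96, 22.1 and 17.8, a 1.24-fold range. The length that the authors' model gave to Lss was 3779, 2867 and 3136 bases. Tm7sf2 had a 1.65-fold range in TPM and a 1.29-fold range in scaled CPM, with lengths of 1287, 1828 and 1348 bases. In these 2 genes retained-intron transcripts took unequal shares between libraries: Lss-205 took 4.90, 26.8 and 17.9% of the gene's TPM, and Tm7sf2-215 took 7.64, 25.8 and 4.05%. Of the 34 genes, 8 peaked in different libraries by TPM and by scaled CPM.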
